A study of Mus musculus with 16 samples.

Results

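The dose step of kaempferol (K) compared 2 arrays of murine fibroblasts given 120 µM K with 2 arrays given 60 µM K, and it was described across 22202 transcript clusters with 1 gene symbol. Its 4 arrays belong to a set of 16 in 8 groups of 2, the others being genistein (G) at both doses, both compounds mixed in equal parts to the same final doses, and 0.05% and 0.1% DMSO controls. All cells were primary skin fibroblasts grown out of the tails of mice with mucopolysaccharidosis type I (MPS I), aged 6 to 8 weeks, and they were exposed for 24 h before RNA was taken. The labels give 0.05% DMSO as the solvent of every treated culture, so that both K groups share it, and they call the replicates biological. For the mixtures the study's methods give 0.1% DMSO instead. How many animals or cultures lie behind the 2 arrays of a group is not given in the sources used here. P-values rest on the spread between arrays of a group, estimated over all 8 groups, and cannot be read as measuring a spread between animals.

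K is a flavonol, a plant polyphenol, and G an isoflavone, and the study asked how both act on glycosaminoglycan metabolism and on growth of MPS I cells. In MPS I the lysosomal enzyme alpha-L-iduronidase, which the gene Idua encodes, is deficient, and heparan and dermatan sulphate accumulate. Dermal fibroblasts make and remodel the extracellular matrix, pull on it through actin and myosin, and divide when they are not confluent. Flavonols are known to inhibit several protein kinases and to induce genes of the antioxidant response that the transcription factor NRF2 controls.

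The arrays were similar in quality, with a difference between replicates. The median signal of the 4 K arrays lay between 6.55 and 6.58 on the log2 scale and that of the negative controls between 6.61 and 6.75, while between 23.7% and 27.1% of the clusters exceeded the 95th percentile of these controls. Replicate 1 had the lower share in both K groups, with 24.2% at 60 µM and 23.7% at 120 µM, against 27.1% and 26.1% for replicate 2. Arrays of the same K group correlated with r of 0.9956 to 0.9968 across clusters, and arrays of different K groups with r of 0.9945 to 0.996. Of 10 fibroblast markers none passed the test and all had values below 0, with a median log2 fold change of -0.18. Most were bright, such as the collagen gene Col1a1 (16.73 and 16.62 at 60 µM, 16.65 and 16.55 at 120 µM), but Lum, the gene of the proteoglycan lumican, lay between 6.16 and 6.74. Summed on the linear scale, the fibroblast markers reached 425800 to 437400 at 60 µM and 386500 to 390800 at 120 µM. Keratinocyte, endothelial, skeletal muscle and melanocyte or Schwann cell markers were near or below the negative controls in both groups in 9 of 10, 8 of 8, 7 of 8 and 8 of 9 genes, leukocyte markers in 6 of 9, smooth muscle markers in 5 of 8 and adipocyte markers in 6 of 7. The leukocyte list summed to 938 to 942 at 60 µM and 766 to 889 at 120 µM, the smooth muscle list to 460 to 473 and 420 to 452, and the adipocyte list to 426 to 550 and 297 to 310, and their part in the results was not tested. The probe set of Idua read 7.90 and 7.73 at 60 µM and 8.03 and 7.80 at 120 µM (log2 fold change 0.10 ± 0.14, standard error, adjusted p = 0.88). Where its probes lie relative to the disrupted part of the gene is not given, so that it does not check the genotype. Neither B2m nor Gapdh, used as references, passed the test (fold changes 1.07 and 0.93).

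Going from 60 to 120 µM, K moved few genes past the test, and most of them went down. A gene is said to have risen or fallen where the adjusted p of limma was under 0.05, with the adjustment made over all 22206 annotated clusters. By this rule 9 genes rose (0.0405% of the clusters tested) and 50 fell (0.225%), 0.266% together, while 2138 clusters (9.63%) had an unadjusted p under 0.05. Where both groups were measured, the genes that fell had fold changes of 0.233 to 0.617 and those that rose of 1.63 to 2.48. Across all clusters the median log2 fold change was 0.01, and the central 95% lay between -0.55 and 0.49. With so few arrays the precision is limited: a log2 fold change had a median standard error of 0.187, or 0.40 to each side as a 95% interval. A fold change above 1.3 was seen in 1333 clusters (6%) and one below 0.7 in 679 (3.06%), tested or not. In all 59 genes the 2 arrays of 120 µM lay on one side of the 2 arrays of 60 µM, an arrangement that 4570 clusters (20.6%) had upwards and 4254 (19.2%) downwards. The count depended on single arrays: it was 13 when either 60 µM array was left out. It was 10 when the first replicate at 120 µM was left out and 56 when the second was, and 28 of these 56 were among the 59. The call held without any single one of the 4 K arrays for 8 of the 50 genes that fell, namely Lgr5, Ndrg1, Mylk, Ccl9, Wisp2, Ldb2, Angpt4 and Lmo7, and for none of the 9 that rose.

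**Figure D1:**
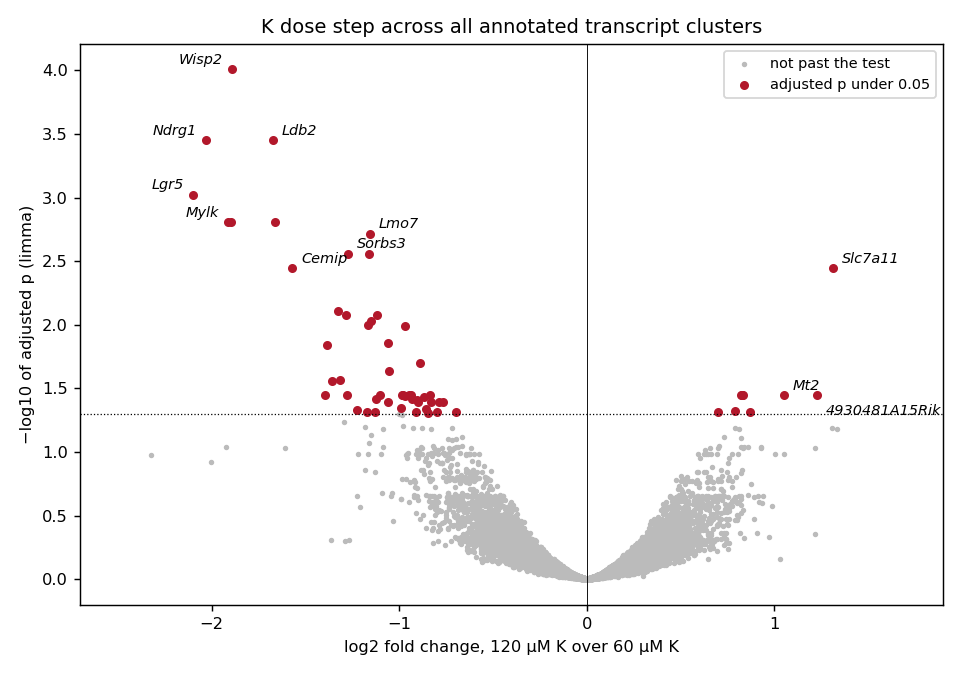
Log2 fold change of 120 µM K over 60 µM K (x axis) against the negative log10 of the adjusted p (y axis) for 22206 transcript clusters, with the dotted line at an adjusted p of 0.05. The 50 genes that fell reach further from 0 and to smaller p than the 9 that rose, with Wisp2 at the top (adjusted p = 9.83e-05).

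Genes of secreted signals and receptors held the steepest fall. Lgr5, a receptor for R-spondins that enhances Wnt signalling and marks stem cells in several epithelia, read 11.73 and 11.71 at 60 µM and 9.74 and 9.50 at 120 µM (log2 fold change -2.10 ± 0.22, adjusted p = 0.00095). Its DMSO control read 13.53 and 13.00, so that the level stepped down at each dose. Ccl9, a chemokine that attracts myeloid cells, read 8.45 and 8.43 at 60 µM against 6.33 and 6.76 at 120 µM (-1.90 ± 0.22, adjusted p = 0.00155). Angpt4, a ligand of the endothelial receptor Tie2, read 9.49 and 9.37 against 7.69 and 7.84 (-1.66 ± 0.19, adjusted p = 0.00155). In DMSO Ccl9 read 8.83 and 8.28 and Angpt4 9.97 and 9.88, so that for both the 120 µM arrays were the lowest. The heparin-binding growth factor pleiotrophin, Ptn, had already lost most of its signal at 60 µM, with 9.59 and 9.79 against 12.65 and 12.38 in DMSO, and fell further to 8.61 and 8.14 (-1.31 ± 0.21, adjusted p = 0.027). Sema3b, a secreted axon guidance protein, and Adcyap1r1, the receptor of the peptide PACAP, completed the group, the former with a log2 fold change of -0.97 and the latter with a fold change of at most 0.828, since both its 120 µM arrays were not well above background.

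On the Wnt pathway, Lgr5 was the 1 gene of 40 measured that fell, and none rose. The neighbours of Lgr5 in the pathway did not pass the test: Rspo2, one of its ligands, had a log2 fold change of -0.89 ± 0.21 (adjusted p = 0.11), the inhibitor Dkk2 of -0.97 ± 0.25 (0.16) and the inhibitor Sfrp1 of -0.46 ± 0.14 (0.24). The median of the list was -0.06, and 14 members were not well above background at either K dose.

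The largest role group, put together after the values were seen, was that of extracellular matrix, adhesion and matrix proteases, with 14 of the 50 genes and a median log2 fold change of -1.12. Each role group holds only genes called as falling, so its median lies below 0 by selection. The share of each role over all clusters was not counted, so the counts do not show that 1 role fell more often than others. Wisp2, also named Ccn5, a matricellular protein of the CCN family that acts on Wnt and growth factor signals, had the smallest p of all clusters. It read 13.07 and 13.38 in DMSO, 13.46 and 13.36 at 60 µM and 11.42 and 11.62 at 120 µM (-1.89 ± 0.15, adjusted p = 9.83e-05, fold change 0.269). Cemip, a protein that takes part in hyaluronan breakdown, behaved alike, with 12.19 and 11.92 in DMSO, 12.24 and 12.05 at 60 µM and 10.66 and 10.49 at 120 µM (-1.57 ± 0.20, adjusted p = 0.0036). For Wisp2 and Cemip the DMSO and 60 µM arrays stayed together and only the 120 µM arrays stood lower. Aspn, the small leucine-rich proteoglycan asporin, read 12.39 and 12.12 at 60 µM and 10.98 and 10.81 at 120 µM (-1.36 ± 0.22, adjusted p = 0.028), after 13.84 and 13.99 in DMSO. Islr, a leucine-rich secreted protein known as meflin that marks mesenchymal progenitors, read 9.41 and 9.63 against 8.06 and 8.22 (-1.38 ± 0.21, adjusted p = 0.014), after 10.99 and 11.58 in DMSO. Both stepped down at each dose.

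The other members of this group followed with smaller steps. Cdh3, the cell adhesion protein P-cadherin, read 9.90 and 9.77 at 60 µM and 8.48 and 8.85 at 120 µM (-1.17 ± 0.17, adjusted p = 0.0100), and Srpx2, a secreted sushi-repeat protein, 12.50 and 12.69 against 11.47 and 11.40 (-1.16 ± 0.14, adjusted p = 0.0028). The collagen-binding integrin chain Itga11 read 11.64 and 11.21 against 10.28 and 10.32 (-1.13 ± 0.20), and the laminin chain Lama4 11.47 and 11.52 against 10.33 and 10.42 (-1.12 ± 0.16). Ogn, the proteoglycan osteoglycin, read 15.92 and 16.02 against 15.21 and 15.04 (-0.84 ± 0.16, adjusted p = 0.049). The tissue plasminogen activator Plat, the collagen prolyl hydroxylase chain P4ha3, the matrix protein Abi3bp, the metalloprotease Adam12 and the neurotrophic matrix protein Ndnf had log2 fold changes between -1.10 and -0.94. Of 24 collagen genes none passed the test (median -0.17, lowest Col8a1 at -0.83 ± 0.24, adjusted p = 0.22), and of 25 elastic fibre and matricellular genes none did (median -0.20). Of 30 integrin and focal adhesion genes, Itga11 fell alone (median -0.11), and of 30 matrix proteases and inhibitors, Plat alone (median -0.10), while the inhibitor Timp3 had -0.70 ± 0.14 (adjusted p = 0.078) and Timp1 -1.13 ± 0.28 (0.14).

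Genes of the cytoskeleton, of contraction and of the cell periphery made up 9 of the 50 that fell, again a count with no share over all clusters beside it. Their median, below 0 by selection, was -1.16. Mylk, the myosin light chain kinase that switches on contraction of non-muscle and smooth muscle cells, read 8.71 and 8.41 at 60 µM, close to 8.39 and 8.46 in DMSO, and 6.40 and 6.90 at 120 µM (-1.91 ± 0.21, adjusted p = 0.00155). Gas2, a protein that links actin and microtubules in growth-arrested cells, read 8.49 and 8.80 against 7.42 and 7.09 (-1.39 ± 0.24, adjusted p = 0.036), after 10.61 and 10.32 in DMSO. Sorbs3, the adaptor vinexin of focal adhesions, read 11.09 and 11.12 against 9.80 and 9.87 (-1.27 ± 0.16, adjusted p = 0.0028), after 12.78 and 12.86 in DMSO. Mylk thus held its level at 60 µM, whereas Gas2 and Sorbs3 had already fallen there. Pdlim2, a PDZ and LIM domain protein on actin, read 11.87 and 11.80 against 10.66 and 10.45 (-1.28 ± 0.18, adjusted p = 0.0084), and Lmo7, a LIM domain protein of adherens junctions, 12.98 and 12.92 against 11.73 and 11.86 (-1.16 ± 0.14, adjusted p = 0.0019). The small heat shock protein Hspb6 fell by 1.15 on the log2 scale and the caveolar ATPase Ehd2 by 0.87. The dystrophin partner Dtna and the FERM domain protein Epb41l4b have bounds only, fold changes of at most 0.570 and at most 0.737, because their 120 µM arrays were not well above background.

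The contractile genes that the transcription factor SRF and its partners of the myocardin family control were listed apart. Of 25 measured, Mylk fell, none rose, and the median was -0.34, beside 0.01 over all clusters. Both 120 µM arrays lay below both 60 µM arrays in 17 of the 25, against 19.2% of all clusters. Acta2, the smooth muscle actin of myofibroblasts, read 17.63 and 17.64 at 60 µM and 16.88 and 17.17 at 120 µM (-0.61 ± 0.14, adjusted p = 0.12), Tagln, the actin-binding transgelin, 12.13 and 12.38 against 11.30 and 11.54 (-0.83 ± 0.21, adjusted p = 0.14), and Myl9, the regulatory myosin light chain, 9.49 and 9.94 against 8.60 and 8.87 (-0.98 ± 0.25, adjusted p = 0.16). None of these 3 passed the test, and their groups did not overlap. In 21 of the 25 genes replicate 1 of 120 µM K was the lower of its pair. The share of all clusters with this order was not counted. It was seen in 27 of 30 genes of DNA replication and in 13 of 26 ATF4 and CHOP genes. Against 0.05% DMSO, 8 members of the list fell and none rose at 60 µM (median -0.33), where 4.4% of all clusters fell and 5.72% rose. At 120 µM 16 fell and 1 rose (median -0.67), where 8% of all clusters fell and 8.98% rose. When the prior variance of limma followed the signal, 7 members of the list were called, beside 1.16% of all clusters.

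Ndrg1 had the second steepest fall. It is induced by hypoxia, iron loss and differentiation and encodes a cytoplasmic protein linked to arrest of growth. It read 11.85 and 11.52 in DMSO, 9.33 and 9.24 at 60 µM and 7.11 and 7.40 at 120 µM (-2.03 ± 0.19, adjusted p = 0.00035), which made it the gene with the lowest level relative to DMSO at 120 µM among the 59 (log2 fold change -4.43). The other genes on the list of hypoxia and glycolysis, 36 measured, did not pass the test, with Pgk1 at -0.42 ± 0.14 (adjusted p = 0.27), Ldha at -0.42 ± 0.17 (0.46), Vegfa at 0.37 ± 0.16 (0.49) and a median of -0.08.

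Regulators of transcription and of signals inside the cell held 5 of the 50. Ldb2, a partner of LIM homeodomain factors, read 8.15 and 8.32 at 60 µM and 6.72 and 6.40 at 120 µM, which was not well above background (fold change of at most 0.343, adjusted p = 0.00035). Osr1, a zinc finger factor of limb and dermal connective tissue, read 12.56 and 12.40 against 11.24 and 11.76 (-0.98 ± 0.17, adjusted p = 0.036). The kinase Cdk15 and the Ras-related GTPase Rerg had log2 fold changes of -1.06 and -0.70, and the phosphatase Ptprv a fold change of at most 0.864. Among enzymes, channels and transporters, 7 of the 50, Clca3a1, a calcium-activated chloride channel regulator, read 8.10 and 7.85 against 6.54 and 6.76 (-1.32 ± 0.18, adjusted p = 0.0078). Enpp3, Slc24a3, Cygb and Pusl1, which act on extracellular nucleotides, calcium exchange, oxygen binding and tRNA, fell by 1.05, 0.95, 0.91 and 0.83. Aoc3, an amine oxidase, and Kcne4, a potassium channel subunit, passed the test with signals that were not well above background in either group (6.35 and 6.45 against 4.77 and 5.58 for Aoc3), so no fold change is given. The remaining genes were Tmem119, a membrane protein of bone-forming cells, with 12.53 and 12.82 against 11.27 and 11.74 (-1.17 ± 0.22, adjusted p = 0.048), the non-annotated transcript A730020M07Rik with 9.34 and 9.17 against 7.92 and 8.03 (-1.28 ± 0.22, adjusted p = 0.036), and Fam43a, D17H6S56E-5 and 4930523C07Rik, between -0.97 and -0.86.

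**Figure D2:**
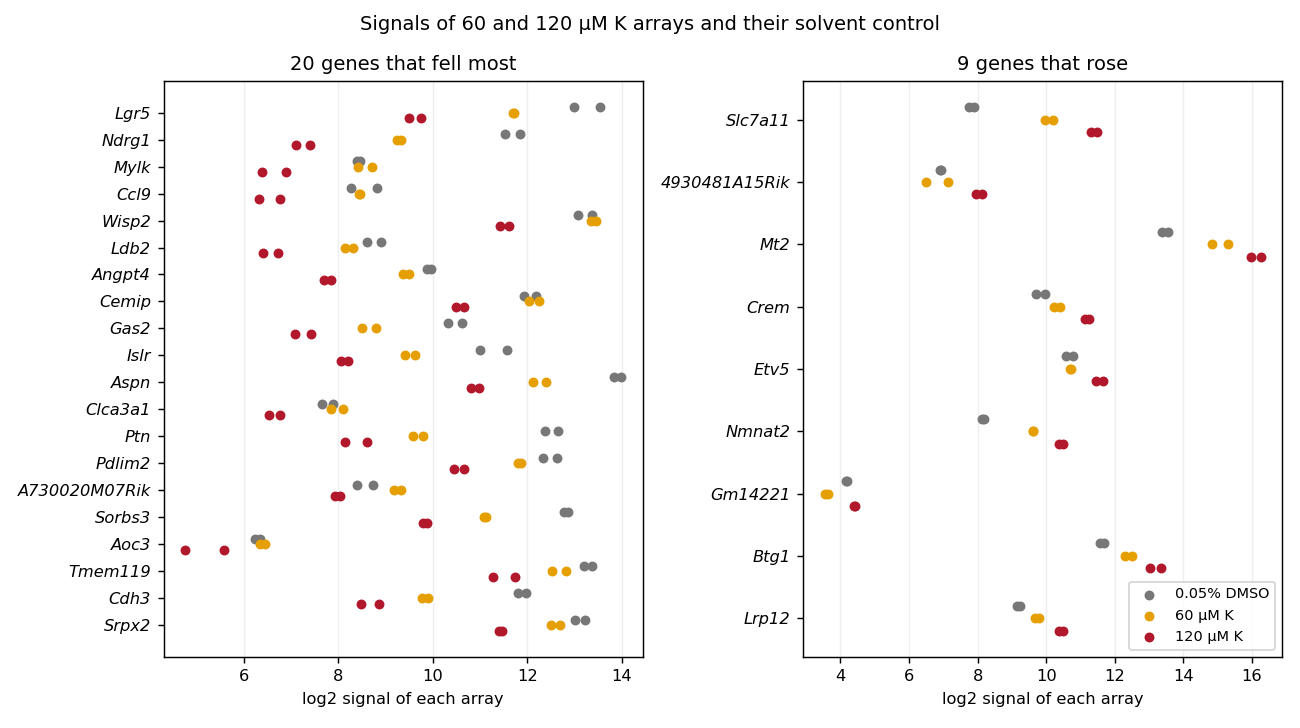
Log2 signal of each array (x axis) for the 20 genes that fell most and the 9 genes that rose between 60 and 120 µM K, with 1 point per array for 0.05% DMSO (grey), 60 µM K (orange) and 120 µM K (red). In every row the red points lie clear of the orange ones, and in rows such as Mylk, Wisp2 and Cemip the orange points lie on the grey ones.

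Compared with the solvent control, the 59 genes followed 3 courses. K at 60 µM already differed from 0.05% DMSO in 2247 clusters (10.1%, of which 1270 rose, 5.72%, and 977 fell, 4.4%), and at 120 µM in 3770 (17%, of which 1993 rose, 8.98%, and 1777 fell, 8%); these contrasts share the K arrays with the dose step, so each gene's own values are given side by side. Of the 50 genes that fell between the doses, 25 had fallen at 60 µM, among them Lgr5 (-1.55 at 60 µM and -3.65 at 120 µM), Ptn (-2.83 and -4.14), Cdh3 (-2.06 and -3.22) and Osr1 (-1.75 and -2.73). A further 19 were not called at 60 µM, among them Mylk (0.14 and -1.77), Wisp2 (0.19 and -1.71), Cemip (0.09 and -1.48), Clca3a1 (0.20 and -1.12) and Cygb (0.07 and -0.84). Others of the 19 lay further from the control at 60 µM and only just missed the threshold. Examples are Ldb2 (-0.52, adjusted p = 0.052) and, upwards, A730020M07Rik (0.69, adjusted p = 0.065). The remaining 6 of the 50 had risen at 60 µM by the test, Kcne4 among them with signals not well above background in any of these groups. Ndnf read 7.90 and 7.78 in DMSO, 9.48 and 9.79 at 60 µM and 8.57 and 8.49 at 120 µM, and Adam12 10.13 and 10.13, then 11.95 and 11.56, then 10.82 and 10.82. Both stayed above the control at 120 µM by the test (log2 fold change 0.69 for each), while Ttk did not differ from it past the test (-0.21). For Epb41l4b and Ptprv the 120 µM and DMSO arrays were not well above background, so that these levels are not compared. Of the 9 genes that rose, 5 had risen at 60 µM, 3 were not called there and Gm14221, with signals from 3.54 to 4.43, had fallen. A gene not called at 60 µM is not thereby shown to be equal to its control, given the width of the intervals.

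**Figure D3:**
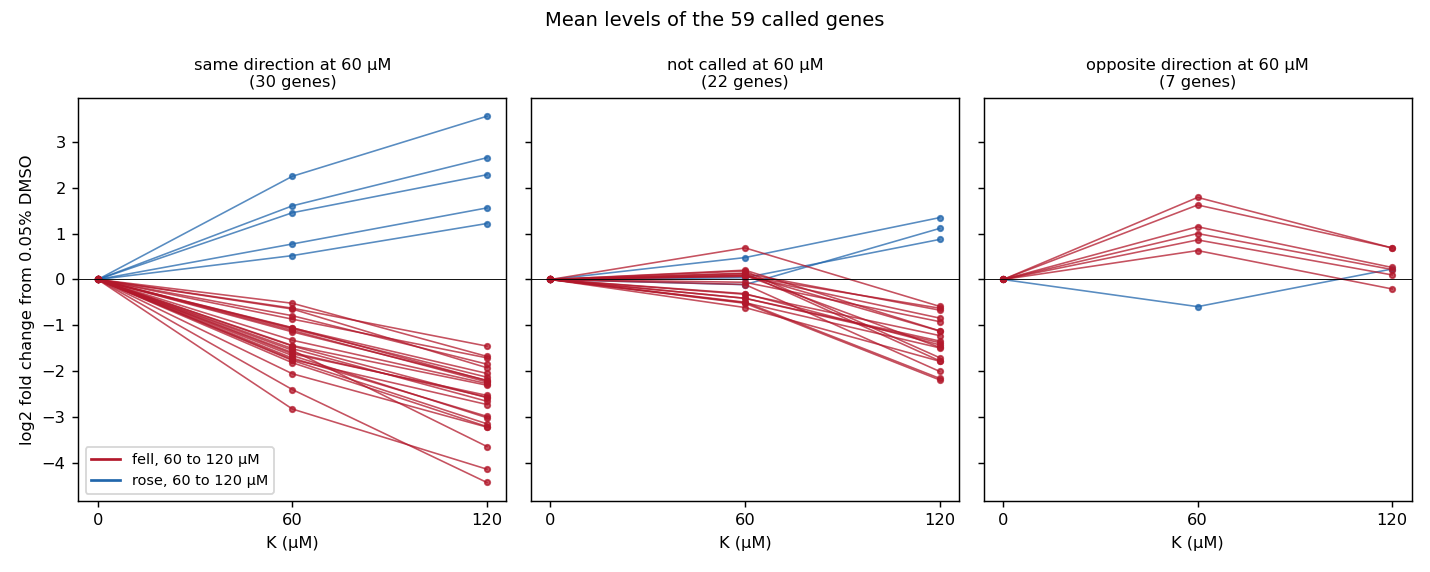
Mean log2 fold change from 0.05% DMSO (y axis) at 0, 60 and 120 µM K (x axis) for the 59 called genes, 1 line per gene, red where the gene fell and blue where it rose between 60 and 120 µM. The 30 genes in the left panel moved the same way at both doses, the 22 in the middle were not called at 60 µM, and the 7 on the right had been called the opposite way. Aoc3, Kcne4 and Gm14221 are drawn from signals not well above background.

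Among the genes that rose, Slc7a11 had the largest step. It encodes the exchanger xCT, which takes up cystine for glutathione synthesis, and it is a textbook target of both NRF2 and ATF4, the factor that answers amino acid and stress signals. It read 7.76 and 7.89 in DMSO, 9.96 and 10.20 at 60 µM and 11.48 and 11.30 at 120 µM (1.31 ± 0.17, adjusted p = 0.0036, fold change 2.48). Mt2, a metallothionein that binds zinc and copper and is induced by metals through the factor MTF1, read 13.37 and 13.54, then 14.83 and 15.30, then 16.25 and 15.98 (1.05 ± 0.18, adjusted p = 0.036, fold change 2.07). Both rose at each dose with no overlap between groups, which for the K doses holds for all 59 called genes. The promoters of both genes are shown because they hold the elements these roles name. They are the 250 bases before the start of transcription in RefSeq's annotation of GRCm38.p6 (no genome build is given for the arrays), written 5′ to 3′ on the gene's own strand, with capitals for the core of the metal response element (TGCACNC or TGCGCNC) in Mt2 and for the amino acid and ATF4 response element (TGATGNAA) in Slc7a11, on either strand. The Mt2 window is chr8:94172368-94172617 on the plus strand and the Slc7a11 window chr3:50443614-50443863 on the minus strand.
Mt2: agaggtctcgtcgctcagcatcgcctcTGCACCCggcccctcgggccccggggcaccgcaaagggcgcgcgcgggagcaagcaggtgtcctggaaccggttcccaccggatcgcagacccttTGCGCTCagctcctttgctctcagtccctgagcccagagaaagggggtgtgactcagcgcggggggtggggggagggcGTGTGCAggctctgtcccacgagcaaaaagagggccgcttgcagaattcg
Slc7a11: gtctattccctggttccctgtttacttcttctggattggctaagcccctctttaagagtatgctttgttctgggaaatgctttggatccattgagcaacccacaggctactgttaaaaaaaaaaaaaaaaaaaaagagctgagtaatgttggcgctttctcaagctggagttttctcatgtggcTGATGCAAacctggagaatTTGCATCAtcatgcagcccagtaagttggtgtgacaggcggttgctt
The Mt2 window holds 3 metal response element cores, which 21.4% of all 32851 promoters of this length hold at least once, and the Slc7a11 window 2 ATF4 elements that face each other, which 3.45% hold. The antioxidant response element core (TGACNNNGC), which 10.2% hold, was found in the Mt2 window and not in these letters of Slc7a11. A match of letters is a description of the sequence and does not show that a factor binds there. Promoters were found for 36 of the 59 called genes, 42 in number. Of the 9 promoters of genes that rose, 4 held a metal response element core and 1 an ATF4 element, and of the 33 of genes that fell, 11 and 0.

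The pathways that Slc7a11 and Mt2 belong to had few other members past the test. Of 25 NRF2 targets, Slc7a11 rose alone and none fell, with a median log2 fold change of 0.16. Against DMSO, 18 members rose and 1 fell at 60 µM (median 1.04), where 5.72% and 4.4% of all clusters did. At 120 µM 20 rose and 1 fell (median 1.13), beside 8.98% and 8% of all clusters. Hmox1, haem oxygenase, read 16.63 and 16.58 at 60 µM and 17.08 and 16.97 at 120 µM (0.42 ± 0.13, adjusted p = 0.25), and Gclc, which catalyses the first step of glutathione synthesis, 13.70 and 13.84 against 14.12 and 14.19 (0.39 ± 0.14, adjusted p = 0.37). The quinone reductase Nqo1 pointed the other way with 11.14 and 11.34 against 10.65 and 10.82 (-0.50 ± 0.17, adjusted p = 0.32). Of 26 ATF4 and CHOP genes, Slc7a11 again rose alone, the median was 0.29, and both 120 µM arrays lay above both 60 µM arrays in 21, against 20.6% of all clusters. Among these, Gpt2, an alanine transaminase, had 0.54 ± 0.16 (adjusted p = 0.245) and Atf4 itself 0.34 ± 0.14 (0.46). Of 24 metallothionein and zinc genes Mt2 rose alone (median 0.06), and Mtf1 had 0.45 ± 0.20 (adjusted p = 0.48). Of 23 glutathione S-transferases none passed the test, with Gsta2 at -0.68 ± 0.32 (adjusted p = 0.52) and Gm3776 of the same alpha cluster at -0.63 ± 0.16 (0.14).

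The other genes that rose were regulators of transcription, growth and metabolism. Etv5, an ETS factor induced by ERK signalling, read 10.77 and 10.59 in DMSO, 10.71 and 10.73 at 60 µM and 11.44 and 11.67 at 120 µM (0.83 ± 0.14, adjusted p = 0.036). Crem, a cAMP response factor with an inducible repressor form, read 10.23 and 10.39 at 60 µM and 11.12 and 11.24 at 120 µM (0.87 ± 0.17, adjusted p = 0.048). Btg1, an antiproliferative protein, read 12.31 and 12.50 against 13.04 and 13.35 (0.79 ± 0.15, adjusted p = 0.047). Of these 3 genes only Btg1 had risen at 60 µM. Nmnat2, which makes NAD in axons, read 9.62 and 9.60 against 10.38 and 10.50 (0.83 ± 0.15), and the membrane receptor Lrp12 9.66 and 9.78 against 10.36 and 10.48 (0.70 ± 0.13), both after a rise at 60 µM. The non-coding transcript 4930481A15Rik read 6.49 and 7.12 against 7.94 and 8.13 (1.23 ± 0.21, adjusted p = 0.036), and Gm14221 was not well above background at either K dose. Of 25 genes of ERK feedback and immediate early response, Etv5 rose alone (median 0.17). The ERK phosphatases next to it did not pass the test, with Dusp4 at 6.85 and 6.92 against 8.22 and 8.21 (1.33 ± 0.27, adjusted p = 0.066), which was the largest upward value of all clusters, and Dusp6 at 8.38 and 8.71 against 9.21 and 9.64 (0.88 ± 0.24, adjusted p = 0.18). Against 0.05% DMSO, 1 member of the ERK list rose and 9 fell at 60 µM (median -0.21). Of all clusters 5.72% rose and 4.4% fell there. At 120 µM 4 members of this list rose and 10 fell (median -0.15), beside 8.98% and 8% of all clusters. Of 29 targets of the tumour suppressor p53 none passed the test (median 0.13), and Plk2 came nearest at 0.73 ± 0.15 (adjusted p = 0.076).

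Of the genes of cell division 3 fell by the test, and most others had values below 0 that did not pass it. Ttk, the kinase MPS1 of the spindle checkpoint, read 10.58 and 10.37 in DMSO, 11.12 and 11.09 at 60 µM and 10.33 and 10.21 at 120 µM (-0.84 ± 0.14, adjusted p = 0.036). Spc24, a subunit of the NDC80 complex of the kinetochore, read 9.03 and 9.18 at 60 µM and 8.11 and 8.30 at 120 µM (-0.90 ± 0.16, adjusted p = 0.041), and Troap, a spindle protein, 12.09 and 11.81 against 11.03 and 11.27 (-0.80 ± 0.15, adjusted p = 0.048). Of 30 G2/M and mitosis genes only Ttk passed the test, but 29 had values below 0, 25 of them with an unadjusted p under 0.05, and the median was -0.61 beside 0.01 over all clusters. In 28 of the 30 both 120 µM arrays lay below both 60 µM arrays, against 19.2% of all clusters. Examples are Cdc20, the activator of the anaphase-promoting complex, with 10.12 and 10.18 against 8.67 and 9.32 (-1.15 ± 0.24, adjusted p = 0.074), the mitotic kinase Cdk1 with 12.06 and 11.99 against 11.25 and 11.28 (-0.76 ± 0.17, 0.11) and the centromeric histone Cenpa with 13.27 and 13.11 against 12.08 and 12.55 (-0.88 ± 0.18, 0.065). Pttg1, the gene of securin, was the exception at 0.37 ± 0.14 (adjusted p = 0.41). Replicate 1 of 120 µM K was the lower of its pair in 23 of the 30, again with no share over all clusters counted. The count of members called was 17 when the prior variance followed the signal (1.16% of all clusters), 12 among brighter clusters alone (1.67% of those), and 0 without either 60 µM array or without replicate 1 of 120 µM K. Fewer dividing cells and less RNA of these genes per cell cannot be told apart in such bulk samples. Against 0.05% DMSO, 2 members rose and 1 fell at 60 µM (median 0.02), where 5.72% of all clusters rose and 4.4% fell. At 120 µM 1 member rose and 16 fell (median -0.60), where 8.98% of all clusters rose and 8% fell.

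The promoters of Ttk and Troap are shown because both genes of mitosis have the CCAAT boxes that promoters of G2/M genes are known for. Capitals mark CCAAT on either strand in the 250 bases before the start, at chr9:83834439-83834688 for Ttk and chr15:99074723-99074972 for Troap, both on the plus strand of GRCm38.p6 from RefSeq.
Ttk: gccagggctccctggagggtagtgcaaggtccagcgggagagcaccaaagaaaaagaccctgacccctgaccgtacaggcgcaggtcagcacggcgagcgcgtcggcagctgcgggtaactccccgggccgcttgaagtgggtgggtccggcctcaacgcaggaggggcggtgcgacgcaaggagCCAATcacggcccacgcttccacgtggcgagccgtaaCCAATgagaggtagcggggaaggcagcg
Troap: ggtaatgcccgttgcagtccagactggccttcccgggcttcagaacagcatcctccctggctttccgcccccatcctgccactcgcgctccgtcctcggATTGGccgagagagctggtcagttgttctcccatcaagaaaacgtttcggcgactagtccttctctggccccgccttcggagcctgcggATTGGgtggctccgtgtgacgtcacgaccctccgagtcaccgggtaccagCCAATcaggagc
Ttk holds 2 boxes and Troap 3. At least 1 box stands in 33.8% of all promoters of this length, in 12 of the 33 promoters of genes that fell and in 5 of the 9 of genes that rose.

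Of 17 replication-dependent histone genes none passed the test, 14 had values below 0, and the median was -0.57, with Hist1h2ag at 15.14 and 15.08 against 14.52 and 14.56 (-0.57 ± 0.16, adjusted p = 0.21). Against 0.05% DMSO, 6 histone genes fell and 0 rose at 60 µM (median -0.70). At 120 µM 14 fell and 0 rose (median -1.34). Of all clusters 4.4% fell at 60 µM and 8% at 120 µM. Histone genes of a cluster are near-identical in sequence, so that single members are uncertain. Of 30 genes of DNA replication none passed the test, 29 had values below 0, and the median was -0.36, with the helicase subunit Mcm6 at 13.11 and 13.07 against 12.42 and 12.60 (-0.58 ± 0.18, adjusted p = 0.25). Cyclins, kinases and inhibitors of G1, 25 measured, had a median of 0.01 and none was called.

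**Figure D4:**
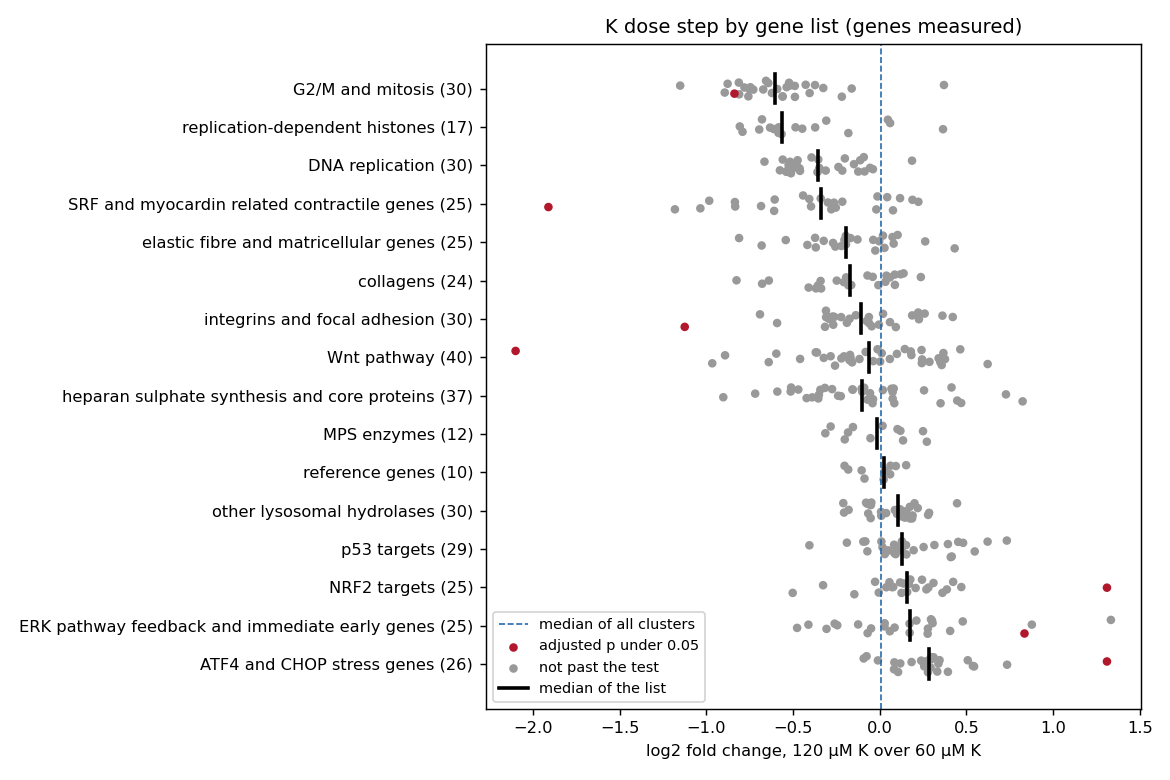
Log2 fold change of 120 µM K over 60 µM K (x axis) for the members of 16 gene lists (y axis, number measured in brackets), 1 point per gene, red where the adjusted p was under 0.05, with the list's median as a black bar and the median of all clusters as a dashed line. The medians run from -0.61 for G2/M and mitosis to 0.29 for ATF4 and CHOP genes, and no list has more than 1 red point.

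Of the lists nearest to the disease, only that of hyaluronan had a gene called between the doses. The proteoglycan genes Ogn and Aspn, which fell, are on none of these lists. Of 12 enzymes deficient in the mucopolysaccharidoses none passed the test even without adjustment, and the median was -0.02, with values between -0.31 for Sgsh and 0.27 for Hyal1. Of 37 genes of heparan sulphate synthesis and its core proteins none was called (median -0.10), with the sulphotransferase Hs3st1 at 7.12 and 7.27 against 8.15 and 7.89 (0.82 ± 0.21, adjusted p = 0.145) and the glypican Gpc6 at 11.53 and 11.44 against 10.96 and 10.57 (-0.72 ± 0.17, adjusted p = 0.11). Of 22 genes of chondroitin and dermatan sulphate none was called (median 0.00), and of 16 genes of hyaluronan, 10 of which were not well above background at either K dose, Cemip fell alone (median -0.02), while its receptor Cd44 had -0.52 ± 0.24 (adjusted p = 0.505). Lysosomal hydrolases outside the mucopolysaccharidoses (30 genes, median 0.10), lysosomal membrane proteins and V-ATPase (33, median 0.05), autophagy genes (30, median 0.10) and the MiT transcription factors (4, all between -0.24 and 0.22) had no member called. The same held for lists of 20 to 30 genes of oxidative phosphorylation, sterol and fatty acid synthesis, heat shock proteins, the unfolded protein response and peroxisomes, whose medians lay between -0.08 and 0.05.

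The same step in final dose was measured for G and for the mixture, with fold changes from arrays that those of the K step do not use. In the mixture this dose is the total of both compounds in equal parts. Each compound in it therefore went through a smaller step, at lower doses, than K or G alone, so the mixture is not matched to K in dose. All tests share 1 estimate of the spread per gene from the whole fit, so the calls compared here are not independent. Between 60 and 120 µM, 348 clusters rose with G (1.57%) and 438 fell (1.97%), 3.54% together, while the mixture moved 0 past the test in limma, with 1179 clusters (5.31%) at an unadjusted p under 0.05. Of the 9 genes that rose with K, 5 also rose with G, which is 55.6% of the former and 1.44% of the latter list. Of the 50 that fell with K, 27 also fell with G, 54% of the former and 6.16% of the latter. None was called in the opposite direction with G. Conversely, the clusters that fell with G had a median log2 fold change of -0.41 in the K step, with 378 of 438 below 0, and those that rose with G one of 0.17, with 253 of 348 above 0, beside 0.01 over all clusters. The G2/M and mitosis list was called more widely with G, where 27 of 30 fell (median -1.15), and the contractile list pointed the other way, with a median of 0.12 in the G step, 1 gene up and 2 down. These differences between lists were not tested.

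K and G differ in structure in the place where the phenolic B ring joins the C ring, and K carries a hydroxyl group on the C ring that G lacks. The difference of the 2 dose steps, tested gene by gene at matched doses and time for this 1 pair of compounds, passed the adjusted threshold for 7 clusters (0.0315%), 3 higher in the K step (0.0135%) and 4 lower (0.018%), while 2592 (11.7%) had an unadjusted p under 0.05. Wisp2 was the 1 gene of these that was also called in the K step. With G it read 13.40 and 13.25 at 60 µM and 13.16 and 12.94 at 120 µM, so that the K arrays of 120 µM stood below all arrays of G (difference of log2 fold changes -1.62 ± 0.21, adjusted p = 0.015). For Txnip, which binds thioredoxin and limits glucose uptake, the steps of the 2 compounds had opposite signs, -0.44 ± 0.13 with K (adjusted p = 0.24) and 0.95 with G, which rose (difference -1.39 ± 0.19, adjusted p = 0.018). The metalloreductase Steap1 had -0.52 with K and 1.32 with G (difference -1.84 ± 0.24, adjusted p = 0.015). For other genes the difference missed the threshold, and its 95% interval shows what the arrays allow: -0.91 to 0.42 for Lgr5, -0.29 to 0.93 for Cemip, -1.96 to -0.81 for Ndrg1 (adjusted p = 0.092), -1.62 to -0.67 for Lama4 (adjusted p = 0.092) and 0.22 to 1.23 for Slc7a11 (adjusted p = 0.27). Some genes that fell with K had a steeper step with G. Among them were Gas2 (-3.05 with G, interval 0.91 to 2.39, adjusted p = 0.11) and Ptn (-2.38 with G, interval 0.42 to 1.72, adjusted p = 0.23). The step of K against that of the mixture, in which K was only part of the dose, gave 0 calls in limma. An unadjusted p under 0.05 was seen in 1073 clusters (4.83%), and the interval of this difference for Lgr5 was -2.41 to -1.09 (adjusted p = 0.69).

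**Figure D5:**
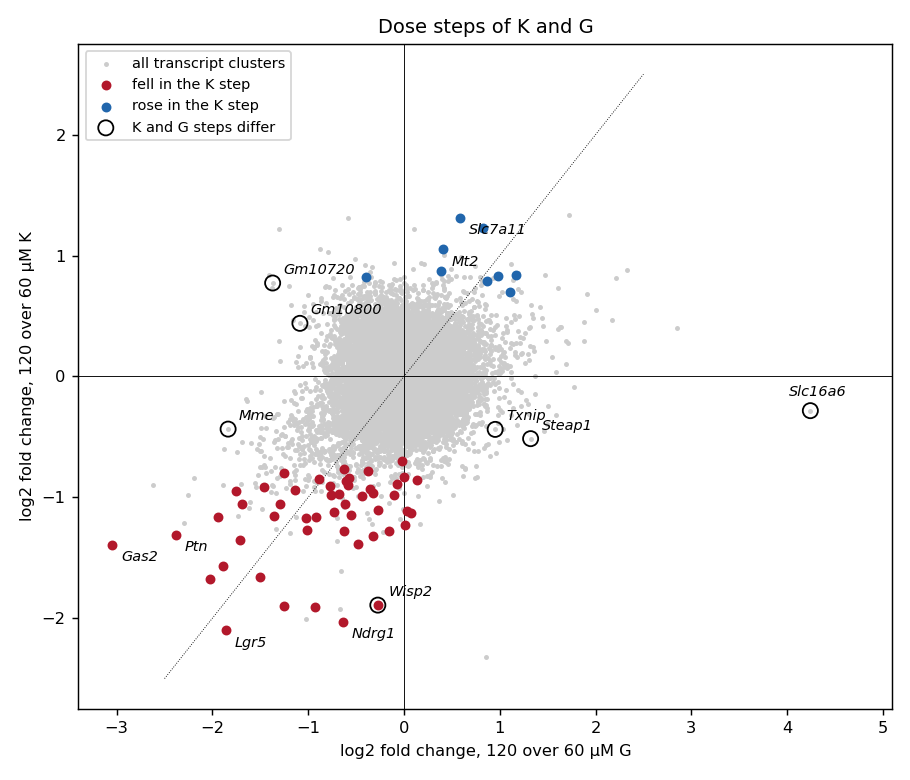
Log2 fold change of 120 over 60 µM G (x axis) against that of K (y axis), 1 point per transcript cluster, with the genes that fell (red) or rose (blue) in the K step and circles around the 7 genes whose steps differ between the compounds by the test (dotted line, equal steps). Most red points lie to the left of 0 with G as well, and Wisp2 stands near 0 with G and at -1.89 with K.

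Just outside the threshold stood Cd248, the endosialin of stromal cells, at a fold change of 0.499 (adjusted p = 0.050) and Acot7, an acyl-CoA thioesterase, at -0.99 ± 0.19 (0.051), and just inside it Ogn and Rerg (adjusted p = 0.049 and 0.048). Size alone did not decide the call. The most negative value of all clusters belonged to Prl2c5, a proliferin of the prolactin family, named here after its value was seen. It read 6.79 and 8.24 in DMSO, 12.31 and 12.28 at 60 µM and 10.17 and 9.77 at 120 µM (-2.33 ± 0.54, adjusted p = 0.11). The proliferins Prl2c2 and Prl2c3 had -2.00 ± 0.47 and -1.93 ± 0.41 (adjusted p = 0.12 and 0.092). These 3 genes are close copies of each other, so that probes may not tell them apart.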

How the data were processed

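The data are 16 Clariom S mouse arrays of RNA. The authors used Transcriptome Analysis Console and Affymetrix Expression Console to turn the scans into log2 signals by RMA (sst-rma in the headers), which were deposited. Quantile normalization sets the arrays to 1 distribution, so that a shift of all genes cannot be seen. The genome build is not given in the sources used here. Of 28846 probe sets, 6640 controls were left out and 22206 annotated transcript clusters were tested, 22202 of them with 1 gene symbol.

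Groups came from the treatment labels, 2 arrays each, while the study's methods speak of 3 replicates. All 16 arrays entered 1 fit in limma 3.58.1 (R 4.3.3) with 1 mean per group (8 residual and 5.81 prior degrees of freedom). Contrasts were 120 against 60 µM K, the same for G and the mixture, differences between steps, and each K dose against 0.05% DMSO. P values were two-sided with Benjamini-Hochberg adjustment across clusters. Where neither array of a group exceeded the median of its 5222 negative controls, the group was taken as not well above background, and a fold change against it is a bound. For a symbol with several clusters the brightest stood in the lists.

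The members, the 49 gene lists and the tests were chosen with earlier results of these data known, and lists were described by counts and medians. Genes named are all that passed the test of the K step, with full values for the 20 that fell most and the 10 that rose most (9 did), up to 4 per list, the 5 largest in each direction of the K against G step, and the checks Idua, B2m and Gapdh. A result on 1 further item is not reported here. Role groups were formed after the values were seen. The fit was tested on simulated data. Promoters came from RefSeq (GRCm38.p6). Alternatives were the prior, array weights, filters, normalization, fewer arrays, the replicate number as a block, the study's fold change criterion and leaving out each array.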

Additional observations from a re-analysis of the deposited data

Results flagged for a closer look

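The dose steps of K and G differed by the test of the difference itself in 7 genes. In log2 fold change, K minus G, these were Wisp2 (-1.62), Steap1 (-1.84), Txnip (-1.39), the neutral endopeptidase Mme (1.40), the predicted genes Gm10800 (1.53) and Gm10720 (2.14), and the monocarboxylate transporter Slc16a6, whose fitted value of -4.53 is not a measured size, with adjusted p of 0.015 to 0.050. Slc16a6 read 6.07 and 6.94 at 60 µM K, 6.10 and 6.35 at 120 µM K, 6.23 and 6.74 at 60 µM G and 10.53 and 10.92 at 120 µM G, so that only the 120 µM G arrays were high, and the 120 µM K arrays were not well above background. Mme fell with G (-1.84) and had -0.44 with K (adjusted p = 0.28). Gm10720 and Gm10800 had 0.77 and 0.44 with K and fell with G (-1.37 and -1.09). All 7 lost the call without replicate 2 of 60 µM K, replicate 1 of 120 µM K, either replicate of 60 µM G or replicate 1 of 120 µM G, with adjusted p of 0.0752 to 0.223 over these 5 omissions.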

How the results depend on the processing

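No value of a called gene changed sign under the alternatives run. Little else was possible. Changes of the prior or of the filter leave a fold change as it is, and the 2 K doses did not overlap in any of the 59 genes. The K step gave 9 genes up and 50 down. It gave 2 and 19 with only the 4 K arrays, 1 and 16 with the 6 arrays of K and 0.05% DMSO, 40 and 217 with a prior variance that followed the signal, 36 and 149 in the brighter clusters by mean signal, 36 and 139 among those above the negative control median in at least 2 arrays, and 1333 and 679 by the fold change criterion with no test. Leaving out 1 K array gave 0 to 6 up and 10 to 50 down, and leaving out 1 array of G or the mixture 22 to 48 calls in all. The G step, with 786 calls, gave 1327 with the trend, 1360 and 1353 with these filters and 331 to 428 without 1 of its arrays. The mixture step gave 6 and K against the mixture 3 with the trend, in place of 0. The 7 differences between K and G became 138 with the trend, 55 and 49 with the filters, and 0 to 36 without 1 array. A lone array left in a group was assumed to vary like the other groups. Centring the arrays or repeating the quantile normalization gave 6 and 53 or 11 and 51. Of the 59 genes, 57 were also called with the trend, 56 after centring, 54 after the repeated normalization, 52 with array weights, 49 with robust hyperparameters and 41 with the block described next.

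Replicate numbers are shared between groups, but arrays of the same number did not deviate together (correlations of -0.136 to 0.142 over 28 pairs of groups, 0.02 for the K groups), so they were not treated as pairs. The negative control median was nevertheless higher in replicate 1 than in replicate 2 of both K groups (6.73 against 6.61 at 60 µM, 6.75 against 6.62 at 120 µM). With the replicate number as a block the K step gave 7 up and 36 down. The number of arrays sets which changes can be seen.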
